A study of Mus musculus with 6 samples.

Results

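The regions described here were runs of neighbouring probes on a mouse promoter tiling array in which every probe was 45 bp long, the shortest of the 45 to 60 bp lengths on the array. Probes outside the control spots were joined along the 19 autosomes where their starts lay at most 500 bp apart in the mm9 build, and a run was kept if it held 6 to 14 probes and no probe over 45 bp. This gave 520 of 23907 autosomal runs, with 4089 of the 174638 probes. The rule took the 45 bp length as the one used for GC-rich sequence. The array files hold no probe sequence and pair no probe with a gene, so neither the GC content nor the position in a promoter was measured here, and regions are named by position.

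The DNA came from hypothalamic tissue of mouse offspring aged 16 weeks. The hypothalamus is a part of the brain that controls appetite, body weight and hormone release. There were 3 samples whose dams had received inulin, a plant fibre that gut bacteria ferment, and 3 samples labelled maternal obesity, with maternal high fat diet as a second label. The labels do not say whether the dams given inulin were obese or fed that diet, nor the strain, the sex, or how many animals or litters stand behind a sample, so p-values measure only the spread between these arrays. The tissue label was not checked, since genomic DNA carries no expression markers.

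Cytosine methylation at CpG sites is a heritable mark that is copied when cells divide, and it is usually low at active CpG-rich promoters and high in most of the remaining genome. In methylated DNA immunoprecipitation (MeDIP), an antibody against 5-methylcytosine pulls down methylated fragments, so the yield depends on both the density of CpG sites and the share of them that is methylated. On each array, Cy5-labelled MeDIP DNA was hybridised against Cy3-labelled input DNA of the same sample. A region's ratio was the mean over its probes of log2 MeDIP over input signal, after each array was centred on its median. A ratio of 0 is therefore the median probe of that array, and no value here is a percentage of methylated cytosines.

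The 520 regions spanned 1055 to 3534 bp, with a median of 1634 bp and of 8 probes. Regions of 7 to 9 probes made up 441 of them (84.8%), 56 had 6 probes, and 23 had 10 to 14. At the lower limit of the rule, the 56 regions of 6 probes had median ratios per array of 0.36 to 0.37 on inulin arrays and 0.52 to 0.56 on obesity arrays, and the 88 runs of 5 probes just outside it had 0.42 to 0.46 on inulin arrays and 0.53 to 0.65 on obesity arrays. At the upper limit, the 2 regions of 14 probes had medians of 0.52 to 0.57 on inulin arrays and 0.64 to 0.82 on obesity arrays, and the single run of 15 probes had 0.80 to 0.86 on inulin arrays and 1.15 to 1.24 on obesity arrays. Chromosomes 15 and 17 held the largest shares, with 4.20% and 4.10% of their regions of 3 or more probes, and chromosome 3 the smallest, with 0.922%. Most lay alone: the median distance to the nearest other region of the set was 415534 bp, and 14 lay within 10 kb of another. A probe with a spot marked as an outlier on any array was left out of all 6 arrays, which removed 415 of the 4089 probes (10.1%) against 7.40% of all probes. This left 519 of the 520 regions with at least 3 probes.

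The arrays themselves differed in ways that run alongside the groups. The interquartile range of the probe ratios was 1.38, 1.40 and 1.40 on inulin arrays 1, 2 and 3 and 1.67, 1.91 and 1.74 on obesity arrays 1, 2 and 3, so the groups did not overlap in it. The 3 inulin arrays shared slide 1, obesity arrays 1 and 3 shared slide 2, and obesity array 2 was alone on slide 3. No slide held both groups, so slide and group cannot be told apart. In the input channel obesity array 2 stood apart from the rest: over the 519 regions, its input signal correlated with those of the other arrays at 0.95 to 0.97, against 0.98 to 0.99 among the other 5 arrays. In the MeDIP signal these ranges met, at 0.945 to 0.966 against 0.965 to 0.995. On the ratio it did not stand apart, with 0.89 to 0.93 against 0.87 to 0.97.

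The regions of 45 bp probes carried more MeDIP signal relative to input than the rest of the array on all 6 arrays. Their median ratio was 0.52, 0.51 and 0.51 on inulin arrays 1, 2 and 3, against medians of -0.06, -0.07 and -0.07 over the 20785 other autosomal regions tested on the same arrays. On obesity arrays 1, 2 and 3 it was 0.60, 0.69 and 0.62, against -0.08, -0.11 and -0.10 over the other regions. Of the 519 regions, 471 (90.8%) lay above 0 on all 6 arrays, against 34.3% of the other autosomal regions, and 4 lay below 0 on all 6. Both channels were brighter than in the rest. The median log2 MeDIP signal, centred on each array, was 0.93, 0.94 and 1.07 on inulin arrays 1, 2 and 3 and 1.05, 1.04 and 1.097 on obesity arrays 1, 2 and 3. The median log2 input signal was 0.29, 0.32 and 0.44 on inulin arrays 1, 2 and 3 and 0.30, 0.23 and 0.32 on obesity arrays 1, 2 and 3. The groups overlapped in both channels, and the excess over the array's median was larger in the MeDIP channel than in the input on every array.

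This position was the upper end of a gradient in probe length. Among autosomal regions of 6 to 14 probes, those with no 45 bp probe had a mean of the array medians of -0.87 ± 0.10 on inulin arrays and -1.20 ± 0.15 on obesity arrays (SD, n = 3 each). Regions with over 50 to 75% of 45 bp probes lay at 0.12 ± 0.02 on inulin arrays and 0.14 ± 0.002 on obesity arrays. Regions with over 75% but under 100% lay at 0.35 ± 0.02 on inulin arrays and 0.43 ± 0.03 on obesity arrays, and those with 45 bp probes only at 0.51 ± 0.01 on inulin arrays and 0.64 ± 0.04 on obesity arrays. The order held on each of the 6 arrays. The 1563 regions with exactly 1 probe over 45 bp had 0.38 ± 0.02 on inulin arrays and 0.47 ± 0.03 on obesity arrays. The 348 tested runs of 3 to 5 probes that were all 45 bp had 0.51 ± 0.01 on inulin arrays and 0.64 ± 0.04 on obesity arrays, the same as the longer runs to this precision. Signal over background was higher too. Among probes of the described regions, 92.3 to 96.7% of MeDIP spots per array were well above background, against 77.3 to 85.7% of all probes.

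**Figure D1:**
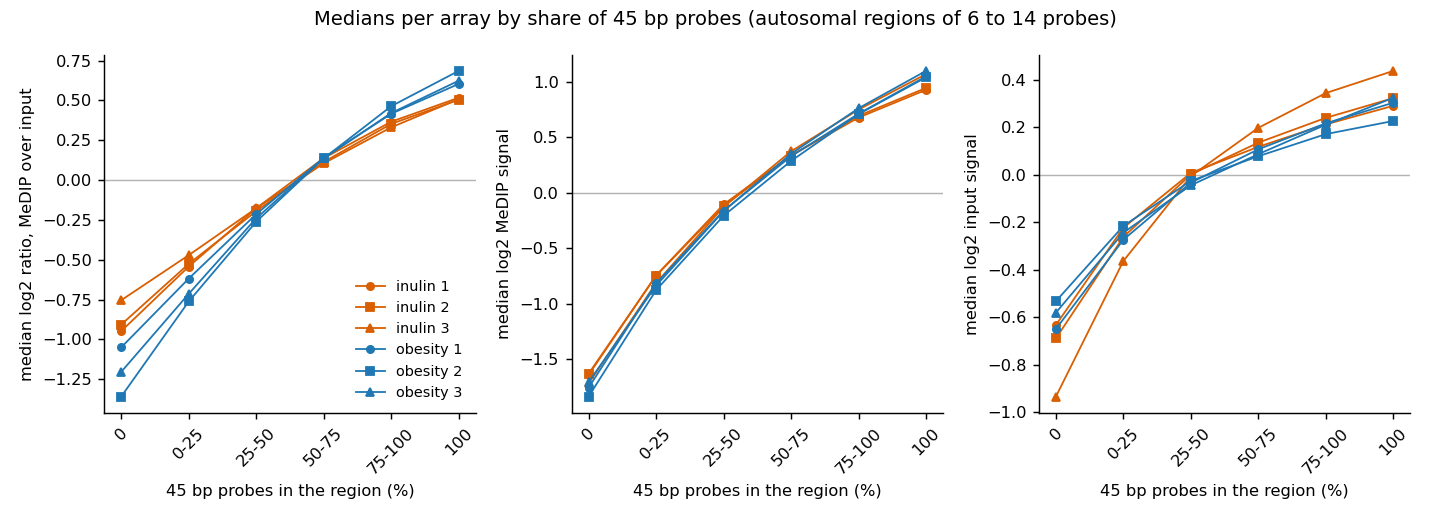
Median log2 ratio (left), centred log2 MeDIP signal (middle) and centred log2 input signal (right) per array over autosomal regions of 6 to 14 probes, grouped by the percentage of 45 bp probes (0, over 0 to 25, over 25 to 50, over 50 to 75, over 75 and under 100, and 100); orange lines are the 3 inulin arrays and blue lines the 3 obesity arrays. All lines climb to the right, and the ratio lines of the groups cross, with the inulin arrays higher at 0% (mean -0.87 in the inulin group, -1.20 on obesity arrays) and lower at 100% (0.51 in the inulin group, 0.64 on obesity arrays).

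Within the set, the mean ratio over the 6 arrays ran from -0.69 to 1.504, with a median of 0.57 and quartiles of 0.38 and 0.80. The other autosomal regions had a median of -0.08, with quartiles of -0.53 and 0.30. The regions of 45 bp probes were also more even inside. The SD between the probes of a region had a median of 0.68, against 0.94 in other autosomal regions of 6 to 14 probes, and the SD between arrays of a group had a median of 0.08 against 0.10. The SD between arrays was not particular to the set. Its median was also 0.08 in regions with over 75% but under 100% of 45 bp probes. The SD between probes was not compared with that of these regions. The rule fixes 1 probe length, while other regions could mix lengths, and the ratio climbed with the share of 45 bp probes. The rule may therefore lower the SD between probes by itself, which was not tested.

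The highest mean ratio was at chr2:30683321-30684958, a run of 8 probes of which probes 7 and 8 were left out for outlier spots. Its ratio was 1.53, 1.47 and 1.51 on inulin arrays 1, 2 and 3 and 1.53, 1.46 and 1.52 on obesity arrays 1, 2 and 3. The groups overlapped in full there, with a difference of 0.00 ± 0.07 (SE). Next came chr5:25004886-25006029, with 1.24, 1.22 and 1.35 on inulin arrays 1, 2 and 3 and 1.48, 1.504 and 1.53 on obesity arrays 1, 2 and 3. The third was chr4:84320619-84322097, with 1.19, 1.22 and 1.34 on inulin arrays 1, 2 and 3 and 1.52, 1.41 and 1.39 on obesity arrays 1, 2 and 3. All inulin arrays lay below all obesity arrays in the last 2, but neither passed the test (adjusted p = 0.0575 and 0.13 by limma). All spots of these 3 regions were well above background in both channels.

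The lowest mean ratio was at chr14:52935506-52936833, with -0.61, -0.43 and -0.60 on inulin arrays 1, 2 and 3 and -0.77, -0.90 and -0.81 on obesity arrays 1, 2 and 3. At chr3:89322799-89324339 the ratio was -0.33, -0.32 and -0.42 on inulin arrays 1, 2 and 3 and -0.47, -0.36 and -0.03 on obesity arrays 1, 2 and 3, so the groups overlapped. At chr19:5473730-5475007 it was -0.22, -0.19 and -0.24 on inulin arrays 1, 2 and 3 and -0.29, -0.47 and -0.33 on obesity arrays 1, 2 and 3. A low mean did not always come from all the probes. In the chromosome 19 region the fourth of 6 probes had a mean ratio of -3.39, while the last 2 had 1.25 and 0.80, and its SD between probes was 1.91. The SD was larger only at chr8:105308531-105310076, at 2.01, where 8 probes ran from -2.54 to 2.79. That region gave 0.52, 0.54 and 0.56 on inulin arrays 1, 2 and 3 and 0.40, 0.28 and 0.57 on obesity arrays 1, 2 and 3, with overlapping groups.

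Along a region, probes in the middle had slightly higher ratios than those at the ends, but the ratio did not peak at the centre. In the channels the result depended on how the middle was taken. Over the 514 regions with unflagged probes in both places, the median of the mean ratio of the third of the probes at the centre minus that of the first and last probe was 0.14 ± 0.01 on inulin arrays and 0.11 ± 0.03 on obesity arrays (SD of the array medians, n = 3 each). The sign was far from uniform, since 292 of the 514 regions (56.8%) had a higher middle. The same measure was 0.19 ± 0.02 on inulin arrays and 0.19 ± 0.03 on obesity arrays in the MeDIP signal, and in the input signal it was 0.08 ± 0.02 on inulin arrays and 0.10 ± 0.04 on obesity arrays. With probes split by position into 5 parts, parts 2 and 4 had the highest ratios. Group means of parts 1 to 5 were 0.46, 0.56, 0.49, 0.56 and 0.44 on inulin arrays. On obesity arrays they were 0.60, 0.75, 0.62, 0.73 and 0.60. In the input signal part 3 was the lowest, at 0.22 on inulin arrays and 0.17 on obesity arrays. In the MeDIP signal part 3 had 0.87 on inulin arrays, against 0.99 and 1.02 in parts 1 and 5. On obesity arrays it had 1.07, against 1.05 and 1.15.

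The comparison of the groups asks whether inulin given to the dams went with another methylation signal in their offspring. With arrays centred on their medians, 44 of the 519 regions had a lower ratio on inulin arrays and 0 had a higher one (limma's moderated test on all 22264 regions, two-sided, Benjamini-Hochberg adjusted p under 0.05). The lower calls made up 8.48% of the set, against 3.19% of all regions, while 7.88% of all regions were called higher. When an outlier spot was left out on its own array only, 21 regions of the set were called lower and 0 higher, and 20 of these 21 were among the 44. They made up 4.04% of the set, against 1.81% of all regions lower and 5.61% higher. All 44 calls were lost with slide as a random block, with position on the slide as a block and without inulin array 2. These settings removed calls across the whole array, leaving 0.292%, 0% and 0.409% of all regions called in either direction, against 11.1% before. At an unadjusted p under 0.05 there were 164 of the 519 regions (31.6%), against 30.7% of all regions. The median difference, inulin minus obesity, was -0.11 in the set and 0.03 over all regions, and it was below 0 in 424 of the 519 regions (81.7%), against 43.5% of all regions. All inulin arrays lay below all obesity arrays in 242 regions (46.6%, against 15.5% of all regions) and above them in 20 (3.85%, against 21.2%).

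This direction depended on the scale of the arrays. When every array was also divided to an equal interquartile range, the difference in the set had a median of 0.03, against 0.01 over all regions, and was below 0 in 187 regions (36.0%). Of the 519 regions, 4 were then called higher and 4 lower (0.771% each), against 2.81% higher and 2.69% lower of all regions. Singled out after their values were seen, the 4 higher were chr2:30683321-30684958, chr12:47919276-47920908, chr15:73537451-73539085 and chr15:101241534-101243249. The 4 lower were chr2:119302878-119304247, chr7:149280703-149282355, chr14:62058300-62059488 and chr15:58045952-58047433. The median ratios per array were then 0.59, 0.57 and 0.57 on inulin arrays 1, 2 and 3 and 0.57, 0.57 and 0.57 on obesity arrays 1, 2 and 3. The authors' deposited table has an unknown scale and centring, and its median score in the set was 0.60, 0.59 and 0.58 on inulin arrays 1, 2 and 3 and 0.59, 0.61 and 0.58 on obesity arrays 1, 2 and 3, with chr15:73537451-73539085 called higher and chr8:86422759-86424375 called lower.

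With median centring the difference followed the level of the ratio, inside the set as outside it. The 18 regions with a mean ratio between -1 and 0 had a median difference of 0.05, against 0.09 in 9245 other autosomal regions of that range. Between 0.25 and 0.5 it was -0.07 in 137 regions of the set and -0.04 in the others, and between 0.5 and 0.75 it was -0.13 in 151 and -0.09 in the others. Between 1 and 1.5 it reached -0.19 in 49 regions of the set and -0.15 in 257 others. The share called lower, in the set and in other regions of like ratio, was 0% against 1.03% between -1 and 0, 1.79% against 3.28% between 0 and 0.25, and 5.84% against 4.03% between 0.25 and 0.5. It was 8.61% against 8.69% between 0.5 and 0.75, 13.1% against 11.5% between 0.75 and 1, and 16.3% against 19.1% between 1 and 1.5. On the equal scale the medians of the set in these ranges lay between 0.01 and 0.08, all above 0.

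**Figure D2:**
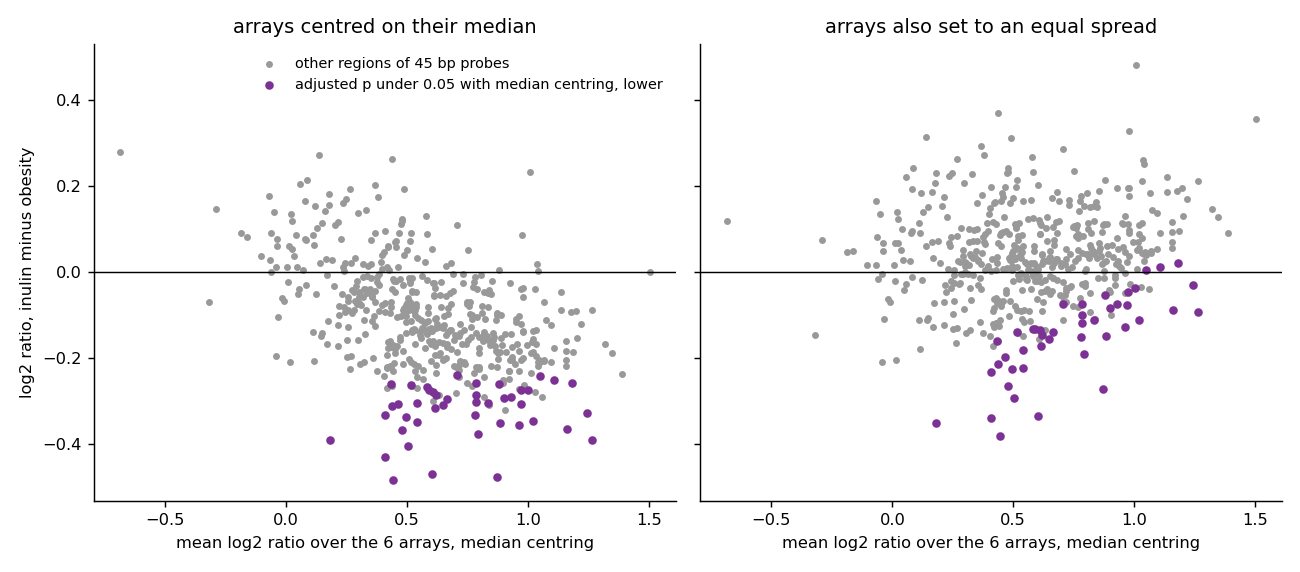
Difference in log2 ratio, inulin minus obesity, against the mean log2 ratio over the 6 arrays for the 519 tested regions of 45 bp probes (1 point each), with arrays centred on their medians (left) and also set to an equal interquartile range (right); purple marks the 44 regions called lower with median centring. Points on the left sink as the ratio grows (medians of 0.05 between -1 and 0, -0.19 between 1 and 1.5), and those on the right lie around a median of 0.03.

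The 44 regions called lower had differences from -0.48 to -0.24, with a median of -0.31, adjusted p-values of 0.012 to 0.0497, and mean ratios of 0.18 to 1.26. They lay on 14 chromosomes, with 8 on chromosome 11 and 5 each on chromosomes 4, 15 and 17. The MeDIP signal was lower in the inulin group in 41 of the 44 and the input signal higher in 41, both in 38, and the input difference was the larger in 23. Picking regions for a lower ratio favours both of these directions. Of the 44, 41 kept a difference below 0 on the equal scale and in the deposited table, but their median difference on the equal scale was -0.14, and 4 were called on that scale and 0 in the deposited table. With only probes well above background in both channels, 32 of the 44 were called lower. In that setting 58 regions of the set were called lower (11.2%, against 7.79% of all regions) and 2 higher (0.385%, against 5.18%).

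The largest difference was at chr2:119302878-119304247, a run of 6 probes. Its ratio was 0.21, 0.22 and 0.18 on inulin arrays 1, 2 and 3 and 0.54, 0.73 and 0.79 on obesity arrays 1, 2 and 3, a difference of -0.48 ± 0.08 (SE, adjusted p = 0.014). The groups were far apart relative to their spread, with SDs of 0.02 on inulin arrays and 0.13 on obesity arrays (n = 3 each). The input signal carried most of it: input was -0.97, -0.85 and -0.72 on inulin arrays 1, 2 and 3 and -1.13, -1.44 and -1.21 on obesity arrays 1, 2 and 3 (difference 0.41 ± 0.10, adjusted p = 0.015). The MeDIP signal differed by -0.10 ± 0.10 (adjusted p = 0.55), with overlapping groups. Of the 5 probes with values, 4 were lower in the inulin group, by up to 0.97, and the last was higher by 0.26. One of these 4 was well above background in neither channel on any array, and without dim probes the difference was -0.54 (adjusted p = 0.011). This region was called on the equal scale too (-0.38, adjusted p = 0.024). The call was lost with slide as a random block (adjusted p = 0.074), with position as a block (0.064), in the deposited table (-0.23, adjusted p = 0.094) and without inulin array 1 (0.051) or 2 (0.064).

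At chr15:58045952-58047433, a run of 8 probes, the ratio was 0.66, 0.61 and 0.64 on inulin arrays 1, 2 and 3 and 1.05, 1.21 and 1.08 on obesity arrays 1, 2 and 3, a difference of -0.48 ± 0.07 (adjusted p = 0.012). All 7 probes with values were lower in the inulin group, by 0.02 to 0.89. Input was higher by 0.30 ± 0.08 (adjusted p = 0.023), and MeDIP signal differed by -0.20 ± 0.08 (adjusted p = 0.14). It was called on the equal scale (-0.27, adjusted p = 0.043) and with probes above background in both channels (-0.38, adjusted p = 0.018). The call was lost with slide as a random block (adjusted p = 0.064), with position as a block (0.060), in the deposited table (-0.17, adjusted p = 0.091), with the median of the probes (0.0501) and without inulin array 2 (0.060).

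Leaving out dim probes ended the call in 2 of the other 3 of the 5 largest differences. At chr7:149280703-149282355 the ratio was 0.40, 0.29 and 0.42 on inulin arrays 1, 2 and 3 and 0.89, 0.79 and 0.83 on obesity arrays 1, 2 and 3 (difference -0.47 ± 0.07, adjusted p = 0.012). Its first 2 probes differed by -0.98 and -1.72 and the other 5 by -0.43 to 0.16, while the second was well above background in neither channel on any array. With probes above background in both channels the difference was -0.12 (adjusted p = 0.23). At chr15:99867926-99869463 the ratio was 0.34, 0.17 and 0.40 on inulin arrays 1, 2 and 3 and 0.68, 0.63 and 0.81 on obesity arrays 1, 2 and 3 (difference -0.40 ± 0.08, adjusted p = 0.023), and 1 dim probe differed by -1.40. Without dim probes the difference was -0.16 (adjusted p = 0.14). With all its unflagged probes, the MeDIP signal at this site differed by -0.50 ± 0.13 (adjusted p = 0.054) and the input signal by -0.07 ± 0.13 (adjusted p = 0.74).

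At chr4:94718495-94720202, a run of 7 probes, the ratio was 0.30, 0.15 and 0.13 on inulin arrays 1, 2 and 3 and 0.51, 0.55 and 0.81 on obesity arrays 1, 2 and 3 (difference -0.43 ± 0.09, adjusted p = 0.026). Without its dim first probe it was -0.34 (adjusted p = 0.015). The ratio call was lost on the equal scale (adjusted p = 0.062), with quantile normalization (0.062), with slide as a random block (0.12) and with position as a block (0.064). It was also lost in the deposited table (-0.14, adjusted p = 0.15), with the median of the probes (0.058) and with outlier spots left out per array (0.059). Without inulin array 1, 2 or 3 the adjusted p was 0.057, 0.11 and 0.077. As at the chromosome 2 site, the input signal differed more than the MeDIP signal. Input was -0.34, -0.27 and -0.16 on inulin arrays 1, 2 and 3 and -0.68, -0.85 and -0.92 on obesity arrays 1, 2 and 3 (difference 0.56 ± 0.08, adjusted p = 0.0021). With an outlier spot left out on its own array only, the input difference was 0.36 (adjusted p = 0.081). The MeDIP signal differed by 0.11 ± 0.08 (adjusted p = 0.41), so the lower ratio at this site stood beside a MeDIP signal that was not lower.

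**Figure D3:**
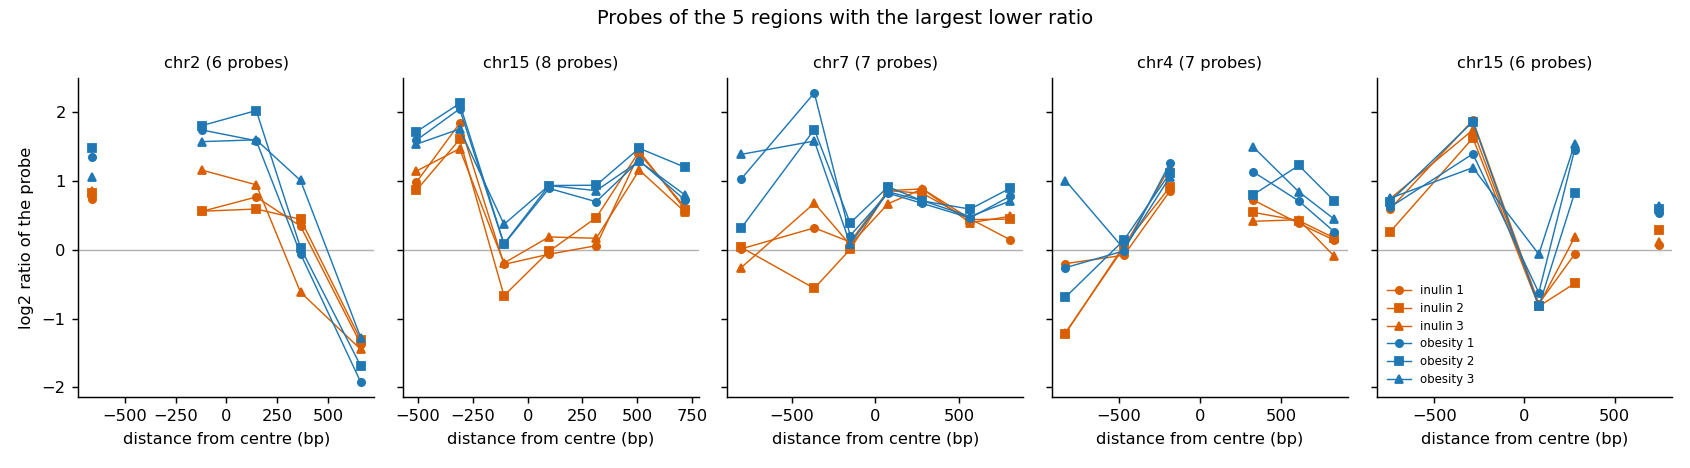
Log2 ratio of each probe against its distance from the centre of the region in bp, for the 5 regions with the largest lower ratio; orange marks the 3 inulin arrays and blue the 3 obesity arrays, and a gap marks a probe left out for an outlier spot. Inulin arrays lie below obesity arrays over most of the chromosome 2 region and the 8-probe chromosome 15 region, while in the chromosome 7 region the first 2 probes carry most of the gap (-0.98 and -1.72).

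No region passed the test with a higher ratio. The 3 lowest p-values in that direction belonged to chr14:52935506-52936833, described above (0.28 ± 0.08, adjusted p = 0.0504), chr15:73537451-73539085 and chr17:47862808-47864085. At the chromosome 14 site the difference was 0.050 (adjusted p = 0.63) with probes above background in both channels and 0.12 (adjusted p = 0.36) on the equal scale. At the chromosome 15 site the ratio was 0.65, 0.63 and 0.42 on inulin arrays 1, 2 and 3 and 0.37, 0.27 and 0.28 on obesity arrays 1, 2 and 3 (0.26 ± 0.08, adjusted p = 0.066). Its MeDIP signal was 0.05, -0.09 and -0.09 on inulin arrays 1, 2 and 3 and -0.24, -0.42 and -0.47 on obesity arrays 1, 2 and 3, without overlap (0.33 ± 0.09, adjusted p = 0.053). This site passed on the equal scale (0.37, adjusted p = 0.039) and in the deposited table (adjusted p = 0.027). At the chromosome 17 site the ratio was 0.37, 0.30 and 0.15 on inulin arrays 1, 2 and 3 and -0.03, 0.14 and -0.11 on obesity arrays 1, 2 and 3 (0.27 ± 0.09, adjusted p = 0.078).

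**Figure D4:**
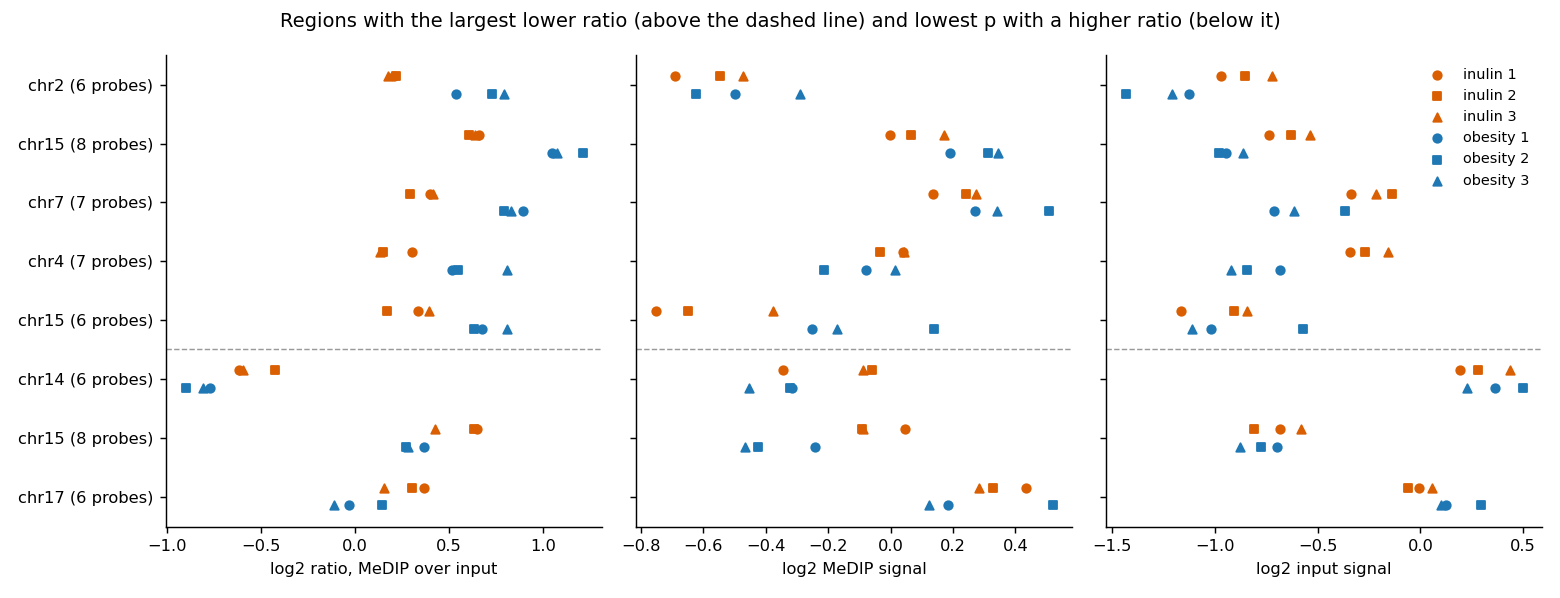
Log2 ratio (left), centred log2 MeDIP signal (middle) and centred log2 input signal (right) on each array for the 5 regions with the largest lower ratio (above the dashed line) and the 3 with the lowest p and a higher ratio, none of which passed the test (below it); orange marks inulin arrays and blue obesity arrays. The groups separate in the ratio in all 8, and in the input signal of the chromosome 2, 8-probe chromosome 15, chromosome 7 and chromosome 4 regions above the line and the chromosome 17 region below it. In the MeDIP signal they separate in both chromosome 15 regions above the line and the chromosome 15 region below it.

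The channels were then tested one at a time, since a ratio can move through either. On the MeDIP channel 3 of the 519 regions were higher in the inulin group (0.578%, against 4.28% of all regions) and 9 lower (1.73%, against 1.44%). On the input channel 35 were higher (6.74%, against 10.5%) and 4 lower (0.771%, against 6.97%). With an outlier spot left out on its own array only, 2 regions were called on the MeDIP channel and 5 on the input channel, in place of 12 and 39. These were 0.385% and 0.962% of the set, against 0.253% and 2.14% of all regions. The median difference was -0.07 for the MeDIP signal and 0.06 for the input signal, against 0.04 and 0.03 over all regions. Without obesity array 2 the medians of the set were -0.08 for the MeDIP signal and 0.024 for the input signal. A lower MeDIP signal went with a higher input signal in 199 regions, both were lower in 148, both were higher in 148, and a higher MeDIP signal went with a lower input in 24.

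**Figure D5:**
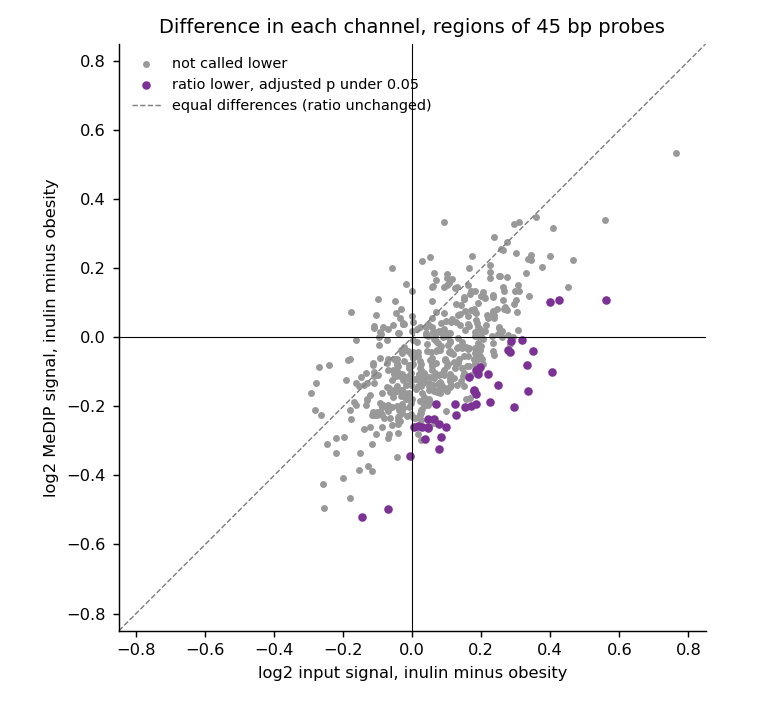
Difference in centred log2 MeDIP signal against difference in centred log2 input signal, both inulin minus obesity, for the 519 tested regions (1 point each); purple marks the 44 with a ratio called lower and the dashed line marks equal differences. The purple points lie below the line, which follows from their being picked for a lower ratio. That pick also favours a lower MeDIP with a higher input signal, seen in 38 of them.

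The 9 regions with a lower MeDIP signal fell by 0.29 to 0.52 on the log2 scale. Their input difference was also below 0 in all 9, and 1 of them was among the 44 ratio calls. At chr9:57492565-57493710 the MeDIP signal was 0.96, 0.90 and 0.996 on inulin arrays 1, 2 and 3 and 1.35, 1.41 and 1.48 on obesity arrays 1, 2 and 3, a difference of -0.46 ± 0.07 (adjusted p = 0.020). Its ratio differed by -0.26 ± 0.08 (adjusted p = 0.064), and its MeDIP call was lost with outlier spots left out per array (adjusted p = 0.075). At chr7:16985314-16986992 the MeDIP signal was -0.02, -0.26 and 0.08 on inulin arrays 1, 2 and 3 and 0.31, 0.60 and 0.45 on obesity arrays 1, 2 and 3 (-0.52 ± 0.11, adjusted p = 0.035), and the ratio difference was -0.35 ± 0.09 (adjusted p = 0.040). This last MeDIP difference turned to 0.07 (adjusted p = 0.74) when an outlier spot was left out on its own array only.

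The 2 lowest p-values for a higher MeDIP signal were at sites that were bright in both channels. At chr2:118587898-118589644 the MeDIP signal was 2.78, 2.85 and 2.84 on inulin arrays 1, 2 and 3 and 2.51, 2.55 and 2.41 on obesity arrays 1, 2 and 3 (0.33 ± 0.07, adjusted p = 0.037). Its input was higher too, by 0.31 ± 0.08 (adjusted p = 0.021), and its ratio differed by 0.05 ± 0.10. At chr9:57544133-57545811 the MeDIP signal was 3.63, 3.59 and 3.67 on inulin arrays 1, 2 and 3 and 3.16, 2.80 and 3.32 on obesity arrays 1, 2 and 3 (0.53 ± 0.12, adjusted p = 0.042). Input there was 3.06, 3.00 and 3.10 on inulin arrays 1, 2 and 3 and 2.43, 1.84 and 2.61 on obesity arrays 1, 2 and 3 (0.76 ± 0.15, adjusted p = 0.0069), the largest input difference among the 35. Probes 3, 6 and 7 of the 7 at this site were left out for outlier spots. Obesity array 2 was the lowest in both channels at this site, and the ratio difference of -0.21 ± 0.09 did not pass (adjusted p = 0.14). With outlier spots left out per array neither of these 2 MeDIP calls passed (adjusted p = 0.10 and 0.12).

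The 35 regions with a higher input signal rose by 0.24 to 0.76, with a median of 0.31. Their MeDIP difference was also above 0 in 26 of the 35. The ratio was below 0 in its difference in 31 of them, and 11 were among the 44 ratio calls. The lowest p-values were at chr4:94718495-94720202, given above, and chr8:86422759-86424375, where input was 1.65, 1.92 and 1.91 on inulin arrays 1, 2 and 3 and 1.26, 1.22 and 1.33 on obesity arrays 1, 2 and 3 (0.56 ± 0.09, adjusted p = 0.0024). Among the 4 with a lower input signal, the lowest p-values were at chr15:88784364-88785843 and chr5:25034733-25036277. Input at the first was 0.25, 0.28 and 0.39 on inulin arrays 1, 2 and 3 and 0.61, 0.55 and 0.59 on obesity arrays 1, 2 and 3 (-0.28 ± 0.07, adjusted p = 0.022), and with an outlier spot left out on its own array only the difference was -0.12 (adjusted p = 0.52). At the second it was -0.21, -0.18 and -0.03 on inulin arrays 1, 2 and 3 and 0.11, 0.24 and 0.08 on obesity arrays 1, 2 and 3 (-0.28 ± 0.08, adjusted p = 0.032), and that p was 0.26 with outlier spots left out per array. Input DNA is not enriched for methylation. The 39 input calls became 12 with slide as a random block (2.31%, against 9.48% of all regions) and 9 with position as a block (1.73%, against 8.95%).

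Each position on the slide held 1 array of each group, which gave 3 differences within a position. The median ratio difference of the set was -0.07 at position 2, -0.09 at position 3 and -0.19 at position 4, against 0.03, 0.01 and 0.03 over all regions. In the inulin array 348, 387 and 446 of the 519 regions were lower there, with no share of all regions computed. With position as a block, 0 regions were called on the ratio (0% of all regions too), and 125 (24.1%, against 24.4% of all regions) had an unadjusted p under 0.05. With slide as a random block 0 were called, against 0.292% of all regions, and 98 (18.9%, against 19.9% of all regions) had such a p. Without inulin array 2 there were 0 calls, against 0.409% of all regions, with 97 regions (18.7%, against 21.2% of all regions) at that p. Without inulin arrays 1 and 3 in turn, 0.385% and 1.35% of the set (2 and 7 regions) were called lower, against 0.184% and 0.584% of all regions. Without obesity arrays 1, 2 and 3 in turn, 2.70%, 8.09% and 3.66% (14, 42 and 19 regions) were called lower, against 1.26%, 4.31% and 1.65% of all regions. The 45 calls without obesity array 2 included 3 higher, and 33 of them were among the 44. Without obesity array 2 the median difference was -0.09. Without inulin array 2 none of the 5 named lower regions passed. The MeDIP calls were 35 without obesity array 2 (6.74%, against 11.1% of all regions) and 10 without obesity array 3 (1.93%, against 9.22%). They were 0 without each of the other 4 arrays. Of all regions, 0.0314%, 0% and 0.0404% were called without inulin arrays 1, 2 and 3, and 0.269% without obesity array 1. In these 4 settings 51 to 139 regions of the set had an unadjusted p under 0.05 (9.83% to 26.8%, against 17.1% to 25.4% of all regions). The input calls were 24, 9 and 16 without inulin arrays 1, 2 and 3 (4.62%, 1.73% and 3.08%, against 12.4%, 8.08% and 9.94% of all regions). They were 28, 23 and 48 without obesity arrays 1, 2 and 3 (5.39%, 4.43% and 9.25%, against 12.7%, 12.7% and 15.4% of all regions).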

How the data were processed

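The data were 6 two-colour Agilent arrays, 3 per group. Per the file headers, the authors extracted them with Feature Extraction 11.0.1.1 (protocol ChIP_1100_Jul11, mm9 positions), which gave processed signals as intensity values after background subtraction and a linear dye factor, and a log10 ratio of red over green, which was read only to check the direction. The deposited series table holds a score per probe, made in a way not given in the sources used here. Log2 ratios and channel signals were recomputed from the processed signals, centred on each array's median, averaged over regions of 3 or more probes, and tested by lmFit and eBayes of limma 3.58.1 (R 4.3.3, Benjamini-Hochberg over 22264 regions, threshold 0.05). Summaries used pandas 2.3.3, numpy 2.4.6 and matplotlib 3.10.9. The region test was tested on simulated data.

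The regions, lists and tests were chosen with earlier results of these data known. Leaving out a probe with an outlier spot on all arrays was chosen after the results of both versions had been seen, because leaving out a spot on its own array alone let a region's mean rest on different probes in the groups. That version called 21 regions lower on the ratio in place of 44, 2 in place of 12 on the MeDIP channel and 5 in place of 39 on the input channel. Named regions are the 5 largest called differences per direction (or the 3 lowest p where none passed), the 3 highest and 3 lowest mean ratios, the 2 lowest p per direction and channel, and the 2 largest spreads between probes. The number of arrays limits the precision. Alternatives are in the closing section.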

Additional observations from a re-analysis of the deposited data

How the results depend on the processing

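The count of 44 ratio calls was 8.48% of the set, against 11.1% of all regions in both directions. It rose to 140 with normexp (27%, against 15.6%) and 67 with a robust prior with a trend (12.9%, against 11.4%). With normexp 138 were lower (26.6%, against 8.51% of all regions) and 2 higher (0.385%, against 7.11%). At a threshold of 0.1 the count was 106, with no share of all regions computed. The count fell to 19 with the median of the probes (3.66%, against 6.95% of all regions) and 8 on an equal scale (1.54%, against 5.5%). It was 6 with quantile normalization (1.16%, against 3.8%) and 2 in the deposited table (0.385%, against 2.28%). With outlier spots left out per array it was 21 (4.04%, against 7.42%). With a random slide block (correlation 0.29) and with position as a block it was 0, against 0.292% and 0% of all regions. The count ranged from 0 to 45 with 1 array left out. The 12 MeDIP calls (2.31%, against 5.72% of all regions) became 25 with quantile normalization (4.82%, against 8.35%) and 22 with normexp (4.24%, against 5.74%). With outlier spots left out per array there were 2 (0.385%, against 0.253%). With slide and with position as a block there were 0, as over all regions. The MeDIP count ranged from 0 to 35 with 1 array left out. The 39 input calls (7.51%, against 17.5% of all regions) became 23 with quantile normalization (4.43%, against 15.5%) and 19 with normexp (3.66%, against 9.88%). There were 12 with slide (2.31%, against 9.48%), 9 with position (1.73%, against 8.95%) and 5 with outlier spots left out per array (0.962%, against 2.14%). The input count ranged from 9 to 48 with 1 array left out. The median difference of -0.11 turned to 0.031 on an equal scale, moved to -0.080 with loess, -0.015 with quantile normalization and -0.0072 in the deposited table, and ranged from -0.13 to -0.09 with 1 array left out. The level above other regions, 0.65, moved to 0.41 with normexp, 0.51 with loess and 0.39 with both channels above background (0.63 to 0.67 with 1 array left out). The middle minus end value of 0.12 moved to 0.095 with normexp, 0.055 in the deposited table and 0.081 with both channels above background (0.12 to 0.13 with 1 array left out). The cause of these changes was not tested. The zero counts with slide or position as a block had 98 and 125 regions at an unadjusted p under 0.05 on the ratio by limma. These were 18.9% and 24.1% of the set, against 19.9% and 24.4% of all regions. On the MeDIP channel there were 30 and 77 (5.78% and 14.8%, against 12.5% and 21% of all regions).

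Whether the replicate numbers pair the arrays could not be settled from these values. Same-numbered arrays' deviations correlated at -0.16, 0.32 and 0.36. That was the best match for inulin arrays 2 and 3, while inulin array 1 correlated best with obesity array 2 (0.23). Arrays at the same position correlated at -0.16, -0.05 and -0.42. The replicate block gave 63 ratio calls (12.1%, against 18.5% of all regions), 46 MeDIP calls (8.86%, against 15.9%) and 63 input calls (12.1%, against 20.4%). Of 240 repeats of the named differences, 140 kept their side of the threshold, 85 no longer passed, 14 newly passed and 1 reversed, the MeDIP difference at chr7:16985314-16986992 (0.073, adjusted p = 0.74, with outlier spots left out per array). Dim probes limit single regions, and 3 arrays per group limit all of them. The blocks for position and the outlier spots left out per array were chosen after seeing the data.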
